A study of Mus musculus with 18 samples.

Results

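Cdh1, Cdh2 and Epcam are 3 of the 10965 genes whose transcript levels were measured in mouse embryonic stem cells (ESCs) with and without Zeb2 during neural differentiation (ND). They were picked by gene symbol, with earlier results of these data known. Zeb2 is a DNA-binding repressor of transcription, and the study asked how its absence changes the exit of ESCs from pluripotency. Control ESCs (Ctrl) carry 2 Zeb2 alleles with loxP sites (genotype Zeb2 fl/fl) and the KO ESCs carry none that is intact (Zeb2 -/-), both on the CD1 strain. Cells of each genotype were collected in feeder-free 2i + LIF medium (d0), after 4 days as embryoid bodies (EBs) in medium with 15% serum (d4), and on d6 after transfer on d4 to N2B27 medium with 500 nM retinoic acid. There were 3 libraries for each genotype and day, described by the study as independent experiments, and 18 in all. Which KO and Ctrl lines were sequenced on each day, and whether each is 1 line, is not given in the sources used here.

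Cdh1 encodes E-cadherin, the calcium-dependent adhesion protein that holds epithelial cells and ESCs together at adherens junctions. Cdh2 encodes N-cadherin, which takes over this role in neural and mesenchymal cells, and the exchange of the first for the second is a textbook mark of the epithelial-to-mesenchymal transition and of the formation of the neural plate. Epcam encodes an epithelial adhesion molecule of ESCs that is structurally unrelated to cadherins, is cut by proteases and associates with the claudin Cldn7. Zeb1, Zeb2, Snai1 and Snai2 are known repressors of Cdh1 that bind E-box sequences in its promoter.

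Levels are TPM, the transcripts of a gene relative to all transcripts of a library, a unit corrected for gene length, so different genes can be set side by side. Differences are on the log2(TPM + 1) scale with their SE from 1 limma fit to all genes and libraries, and a gene was called where the Benjamini-Hochberg adjusted p over all 10965 genes was below 0.01. The libraries held 9622622 to 15617675 reads on the genes of the table. In the bulk RNA of EBs, fewer cells of a type and less RNA per cell cannot be told apart. Zeb2 itself was at 0.138, 0.123 and 0.128 TPM in Ctrl d0, at 1.23, 1.39 and 1.47 in Ctrl d4 and at 7.81, 7.53 and 7.65 in Ctrl d6. In KO it was at 0.0171, 0.0274 and 0.0203 TPM on d0, at 0.126, 0.204 and 0.161 on d4 and at 0.717, 0.594 and 0.733 on d6. Zeb2 was lower in each KO library than in each Ctrl library of the same day, so the genotype labels matched the targeted gene. The KO minus Ctrl difference was -0.14 at d0, on a scale that adds 1 to these low TPM values, and was not called (adjusted p = 0.36, from 1 to 3 reads in KO and 13 to 19 in Ctrl). It was -1.02 at d4 (adjusted p = 2.56e-06) and -2.37 at d6 (adjusted p = 6.98e-11). The table gives 1 value per gene, so reads from any exons left in the KO allele count as Zeb2 reads.

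The surroundings of Cdh1 and Epcam in the genome differed between groups of libraries, which bears on both genes. Cdh1 (ENSMUSG00000000303) lies on chromosome 8 from 106603351 to 106670246 on the plus strand of GRCm38. Epcam (ENSMUSG00000045394) lies on chromosome 17 from 87635979 to 87651129 on the plus strand, and Cdh2 (ENSMUSG00000024304) on chromosome 18 from 16588877 to 16809246 on the minus strand. For each library, the median deviation of a region's genes from their own mean over the 18 libraries was taken, less the same median over all genes. Over the 95 genes that start within 20 Mb of Epcam this median was between 0.36 and 0.50 in the 9 libraries of Ctrl d0, Ctrl d6 and KO d6, and between -0.47 and -0.39 in the 9 libraries of Ctrl d4, KO d0 and KO d4. Over the 462 genes of chromosome 17 that start more than 30 Mb before Epcam it stayed between -0.11 and 0.14 in all 18 libraries. The same groups of libraries parted in the other direction on chromosome 8, where the median over 667 genes other than Cdh1 was between -0.26 and -0.16 in Ctrl d0, Ctrl d6 and KO d6 and between 0.19 and 0.23 in Ctrl d4, KO d0 and KO d4. The 3 libraries of each group lay together, and no single library stood apart. Values of Cdh1 and Epcam are therefore given with those of the genes around them, and the part of these regions in the results was tested only by removing their medians.

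**Figure D1:**
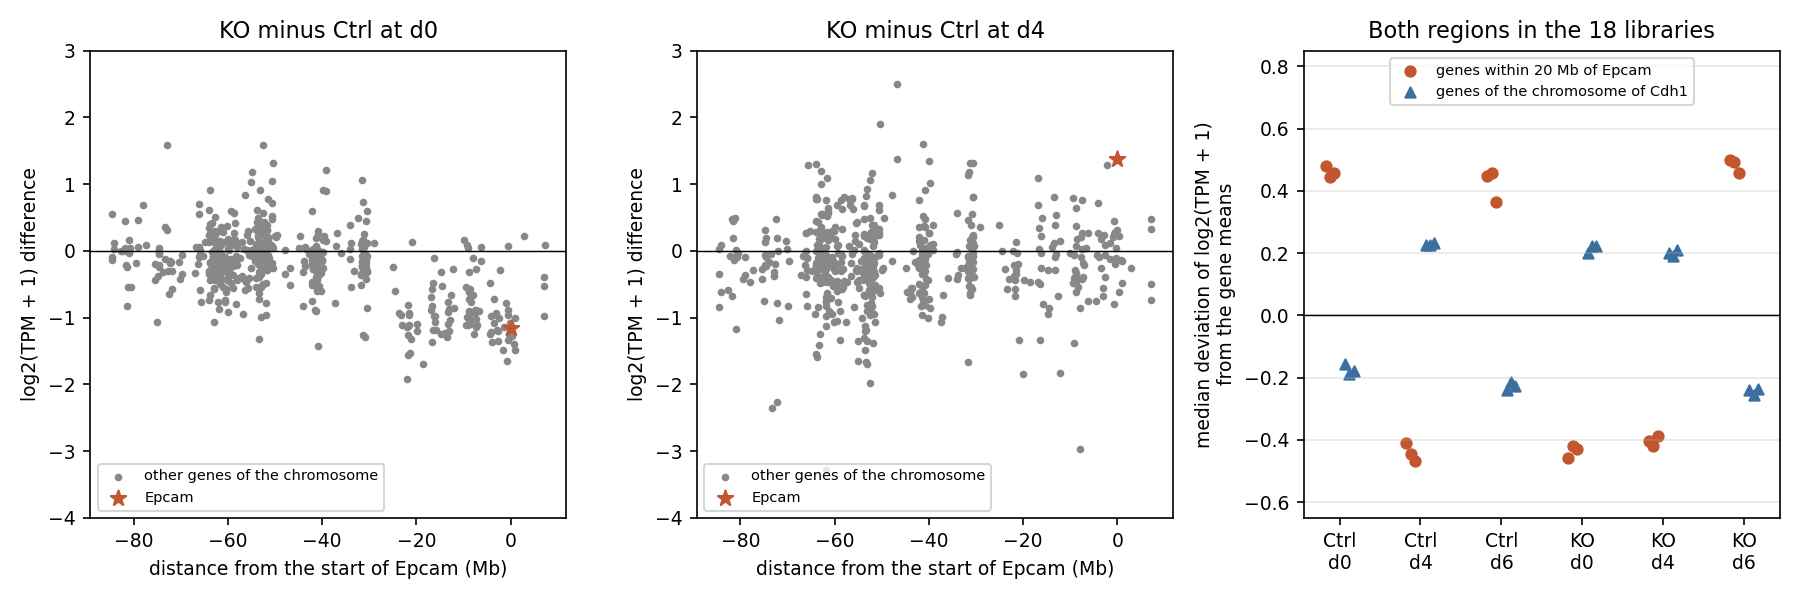
KO minus Ctrl differences on the log2(TPM + 1) scale at d0 (left) and d4 (middle) for the genes of chromosome 17 by distance from the start of Epcam in Mb, with Epcam as a star, and (right) the median deviation of log2(TPM + 1) in each of the 18 libraries for 95 genes within 20 Mb of Epcam (circles) and for 667 genes of chromosome 8 without Cdh1 (triangles). At d0 Epcam sits within a lowered stretch of the chromosome, at d4 it stands above its surroundings, and the circles and triangles split the groups in opposite directions.

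Cdh1 mRNA fell in Ctrl cells over the time course and stayed higher in KO cells on each day. It was at 405, 397 and 393 TPM in Ctrl d0, at 299.7, 312 and 306 in Ctrl d4 and at 194, 186 and 222 in Ctrl d6. In KO it was at 724, 691 and 654 TPM on d0, at 456, 523 and 478 on d4 and at 503, 563 and 617 on d6. Each KO library was above each Ctrl library, whatever the day, while within a day the genotypes did not overlap for 51.5% (d0), 65.7% (d4) and 63.7% (d6) of all genes. The KO minus Ctrl difference was 0.79 ± 0.08 (SE) at d0 (adjusted p = 1.18e-06), 0.66 ± 0.08 at d4 (adjusted p = 2.68e-06) and 1.48 ± 0.08 at d6 (adjusted p = 1.19e-10), so that the mean TPM was 1.73, 1.59 and 2.79 times that of Ctrl. Of all genes, 10.6%, 12.7% and 17.9% were called higher in KO on these days, and 1.10% were called higher on all 3, as Cdh1 was. The median difference of all genes was -0.07, -0.16 and -0.14.

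In TPM as deposited, both genotypes lost Cdh1 mRNA at first and parted after d4. This timing did not hold with the median of neighbouring genes removed, as given below. Between d0 and d4 the level fell by 0.38 ± 0.08 in Ctrl (adjusted p = 0.000275) and by 0.51 ± 0.08 in KO (adjusted p = 2.01e-05), with 22.3% and 20.9% of all genes called lower. The difference between these changes, -0.13 ± 0.11, was not called (adjusted p = 0.346, 95% interval -0.36 to 0.10, with 36.1% of all genes called). Between d4 and d6 it fell by a further 0.61 ± 0.08 in Ctrl (adjusted p = 5.08e-06, with 21.5% of all genes called lower), while the change of 0.21 ± 0.08 in KO was not called (adjusted p = 0.0314). The changes after d4 differed between the genotypes by 0.81 ± 0.11 (adjusted p = 4.23e-05, with 13.4% of all genes called in this contrast). Over the whole course the difference in change was 0.69 ± 0.11 (adjusted p = 5.54e-05, with 43.7% of genes called), with Ctrl at 50.4% and KO at 81.4% of its own mean d0 TPM.

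Genes around Cdh1 were higher in KO at d0 as well. Of 43 genes that start within 1 Mb of Cdh1, the call at d0 was higher in KO for 23 and lower for 0, against 10.6% and 16.4% of all genes. The rest of chromosome 8 was alike, since of its 667 genes other than Cdh1 322 were called higher and 24 lower, with a median of 0.33. The 43 genes had a median difference of 0.32, and 2 of them, Nqo1 and Rltpr, had a larger difference than Cdh1. At d4 the larger ones were Nqo1 and Cdh3, and at d6 it was Nqo1 alone. At d4 the median of these 43 genes was -0.19 and at d6 -0.13, against 0.66 and 1.48 for Cdh1. With the median of these neighbours removed from Cdh1 in each library, the KO minus Ctrl difference was 0.43 ± 0.07 at d0 (adjusted p = 0.000221), 0.85 ± 0.07 at d4 and 1.61 ± 0.07 at d6. On this scale the course itself was another one, since the fall to d4 was larger in Ctrl (1.02 against 0.60 in KO, with a difference of 0.42 ± 0.10 that was now called at adjusted p = 0.00319). The change from d4 to d6 was -0.16 in Ctrl (adjusted p = 0.0789) and 0.60 in KO (adjusted p = 4.48e-06). The difference between the genotypes at d6 was as large without the neighbours' median, but the interval in which Ctrl lost most of its Cdh1 mRNA was not the same on both scales.

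The gene annotated as protein-coding before Cdh1, 29.9 kb away, is Gm10073, a predicted gene, and the next one after it, 12.8 kb away, is Tango6, which acts in transport from the endoplasmic reticulum. Tango6 was at 40.2 TPM in Ctrl d0 and 56.4 in KO d0, a difference of 0.48 (adjusted p = 9.44e-05). At d6 its means were 40.7 and 43.8 TPM, which differ by 0.11 (adjusted p = 0.224). Gm10073 differed by 0.21 at d0 (adjusted p = 0.13), by 0.49 at d4 (adjusted p = 0.000981) and by 0.33 at d6 (adjusted p = 0.0134). Both lay below Cdh1 in their KO minus Ctrl difference on each day.

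**Figure D2:**
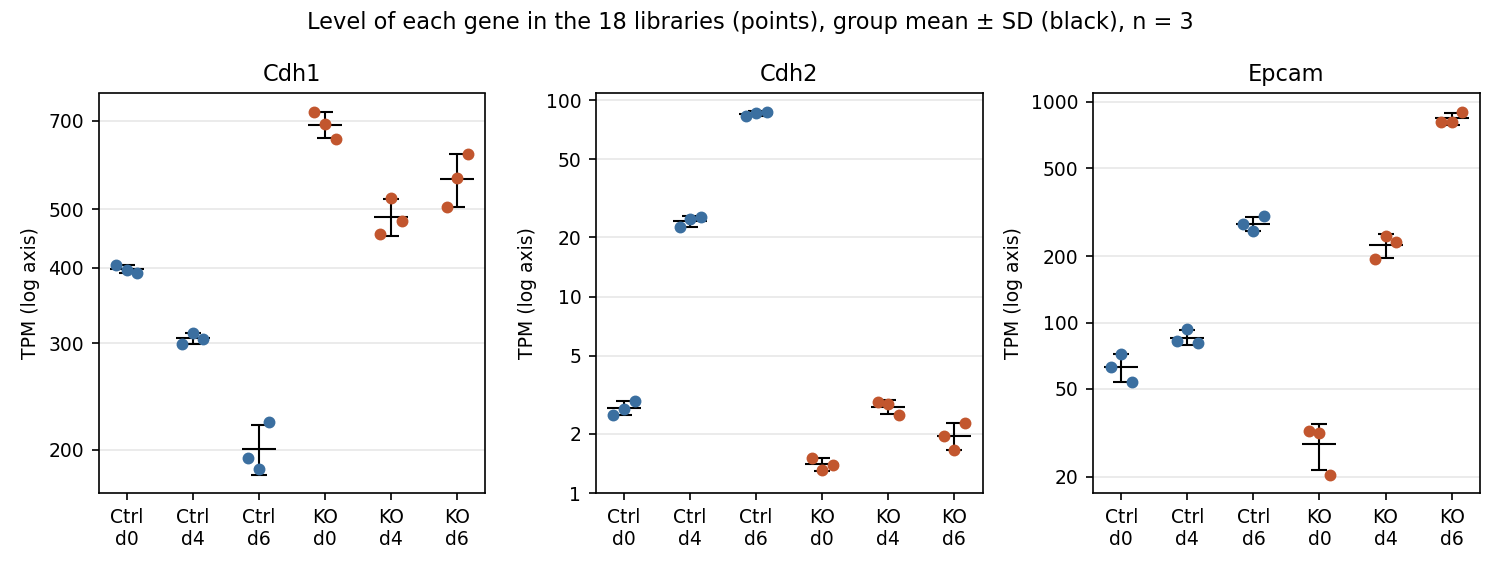
Level of Cdh1, Cdh2 and Epcam in TPM (log axis) in each of the 18 libraries (points, Ctrl in blue and KO in orange), with the group mean ± SD in black (n = 3 libraries). Cdh1 is at 456 TPM or more in each KO library and at 405 or less in each Ctrl library, Cdh2 is at 22.5 TPM or more in Ctrl d4 and d6 and at 2.96 or less in the other groups, and Epcam is highest in KO d6.

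Cdh2 mRNA was induced in Ctrl cells and stayed at 2.90 TPM or less in KO cells. It was at 2.504, 2.68 and 2.96 TPM in Ctrl d0, at 22.5, 24.7 and 25.3 in Ctrl d4 and at 82.9, 85.6 and 87.3 in Ctrl d6. In KO it was at 1.51, 1.31 and 1.39 TPM on d0, at 2.90, 2.85 and 2.51 on d4 and at 1.96, 1.66 and 2.27 on d6. The Ctrl libraries rose from day to day without overlap, and no KO library on any day was above the highest Ctrl d0 library.

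In Ctrl the change from d0 was 2.76 ± 0.10 by d4 (adjusted p = 1.66e-12) and 4.54 ± 0.10 by d6 (adjusted p = 3.27e-15), a rise of the mean TPM to 8.91 and 31.4 times its d0 value, in contrasts where 45.1% and 45.8% of all genes were called higher. In KO the change by d4 was 0.64 ± 0.10 (adjusted p = 4.32e-05, with 35.8% of all genes called higher), from 1.403 ± 0.104 to 2.75 ± 0.22 TPM (SD, n = 3). The change by d6 was 0.30 ± 0.10 and was not called (adjusted p = 0.0159), nor was the change from d4 to d6 of -0.34 ± 0.10 (adjusted p = 0.0108). These KO values rest on 37 to 96 reads per library, against 882 to 2994 in Ctrl d4 and d6. The steps within KO depended on the scaling, since after quantile normalisation of all libraries the change from d0 was -0.07 by d4 and -0.56 by d6.

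The KO minus Ctrl difference of Cdh2 was -0.63 ± 0.10 at d0 (adjusted p = 0.000181), -2.75 ± 0.10 at d4 (adjusted p = 1.27e-11) and -4.87 ± 0.10 at d6 (adjusted p = 4.07e-15). The call at d0 was lost after quantile normalisation (-0.41, adjusted p = 0.0124), and over all alternatives this difference lay between -0.92 and -0.27. Of all genes, 16.4%, 32.7% and 34.3% were called lower in KO on these days, and 5.04% on all 3. On the linear scale the mean TPM of Ctrl was 1.93 times that of KO at d0, 8.79 times at d4 and 43.4 times at d6. By the size of the log2 difference Cdh2 was at rank 87 of the 10965 genes at d4 and at rank 36 at d6. The difference in change was -2.12 ± 0.15 from d0 to d4 (adjusted p = 2.33e-08, with 36.1% of genes called) and -4.24 ± 0.15 from d0 to d6 (adjusted p = 3.6e-12).

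The surroundings of Cdh2 gave little to compare with. Only 2 genes of the table, Gm10036 and Gm7665, start within 1 Mb of it, and neither was called on any day. The protein-coding genes next to it, Chst9 and Dsc3, have no values in the table. The 268 other genes of chromosome 18 had median KO minus Ctrl differences of -0.05, -0.15 and -0.11 at d0, d4 and d6, and 1 of them was lower than Cdh2 at d6.

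Epcam mRNA rose in both genotypes, from a lower level at d0 and to a higher level at d6 in KO than in Ctrl. It was at 62.8, 71.6 and 53.7 TPM in Ctrl d0, at 82.1, 93.2 and 81.1 in Ctrl d4 and at 279, 261 and 303 in Ctrl d6. In KO it was at 32.3, 31.5 and 20.3 TPM on d0, at 194, 247 and 231 on d4 and at 813, 810.1 and 904 on d6. All KO libraries were below those of Ctrl at d0 and above them at d4 and d6. The genotypes did not overlap on any day, as was the case for 51.5% (d0), 65.7% (d4) and 63.7% (d6) of all genes.

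The promoter of Epcam holds 2 copies of the E-box sequence CACCTG, 1 of the strings of letters that the study searched for around the start sites of changed genes. The reference used here held no promoter stretch for Cdh1 or Cdh2, so these were not searched and only that of Epcam is shown. The 250 bases before its start (RefSeq, GRCm38.p6, chr17:87635729-87635978, plus strand) read as follows, with both matches in capitals.
Epcam: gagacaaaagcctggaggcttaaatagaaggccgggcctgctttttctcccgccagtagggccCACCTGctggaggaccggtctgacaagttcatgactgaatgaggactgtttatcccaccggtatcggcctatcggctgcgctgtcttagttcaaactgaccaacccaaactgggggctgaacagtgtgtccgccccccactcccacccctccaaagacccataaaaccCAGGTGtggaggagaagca
CACCTG stands on the gene's own strand at bases 64 to 69, counted from 1 at the left end, which is 187 to 182 bases before the start. CAGGTG, which reads CACCTG on the other strand, stands at bases 232 to 237, which is 19 to 14 bases before the start, with 162 bases between the matches, which is wider than the spacing that the study allowed in its search for paired sites. Of 32851 promoter stretches of the same length from 27025 genes, 17.2% held CACCTG on either strand at least once and 2.06% held it 2 or more times. The shorter CACCT, which is part of CACCTG, was found in 46.0% of them on either strand. A match is a description of the sequence, and no binding was measured in these data.

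In Ctrl the larger step of Epcam in TPM came after d4. The change from d0 to d4 was 0.45 ± 0.15 and just missed the threshold (adjusted p = 0.0107), and the change from d4 to d6 was 1.71 ± 0.15 (adjusted p = 7.55e-08, with 22.6% of all genes called higher), which left the mean at 4.48 times its d0 level. With the median of the genes within 1 Mb removed this order turned, with changes of 1.28 from d0 to d4 and 0.77 from d4 to d6. In KO the rise was 2.98 ± 0.15 by d4 (adjusted p = 4.57e-11) and another 1.91 ± 0.15 by d6 (adjusted p = 3.19e-08, with 21.5% called higher), from 28.0 ± 6.66 to 842 ± 53.4 TPM (SD, n = 3). Epcam rose to 30.04 times its d0 mean in KO, and at d6 it stood at rank 96 of the 10965 genes by mean TPM, against rank 515 in Ctrl. The genes within 1 Mb also rose in KO between these days, with a median change of 0.96. With their median removed, the KO change of Epcam from d0 to d6 was 3.93 ± 0.14, against 4.89 ± 0.15 as deposited.

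The KO minus Ctrl difference of Epcam turned over between d0 and d4. It was -1.15 ± 0.15 at d0 (adjusted p = 1.46e-05), 1.38 ± 0.15 at d4 (adjusted p = 1.1e-06) and 1.58 ± 0.15 at d6 (adjusted p = 1.16e-07). Of all genes, 1.63% were called lower at d0 and higher at d4 and d6. The difference in change was 2.53 ± 0.21 from d0 to d4 (adjusted p = 1.26e-07) and 2.73 ± 0.21 from d0 to d6 (adjusted p = 2.17e-08), while from d4 to d6 it was 0.20 ± 0.21 and was not called (adjusted p = 0.53, 95% interval -0.23 to 0.64).

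The deficit at d0 was shared by the genes around Epcam. Of 14 genes that start within 1 Mb of it, 13 were called lower and 0 higher in KO at d0, with a median difference of -1.16 next to the -1.15 of Epcam, and 7 of them lay below it and 7 above it. Over 20 Mb to either side, 72 of 95 genes were called lower and 0 higher, with a median of -0.97, against 16.4% of all genes called lower at d0. The neighbour Calm2, which encodes a calmodulin, was at 295 TPM in Ctrl d0 and 139 in KO d0, a difference of -1.08 (adjusted p = 4.9e-08).

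At d4 and d6 Epcam was well above its neighbours. The median of the 14 neighbours was -0.04 at both days, with Epcam at 1.38 and 1.58 above all 14 on each day. With the neighbours' median removed from Epcam in each library, the KO minus Ctrl difference was -0.13 ± 0.14 at d0 and no longer called (adjusted p = 0.514), and 1.42 ± 0.14 at d4 and 1.75 ± 0.14 at d6 (adjusted p = 7.25e-07 and 3.12e-08). The difference in change from d0 was then 1.55 ± 0.20 by d4 and 1.88 ± 0.20 by d6, both called. The neighbours' levels also moved between days, and not alike in the genotypes, since their median change from d0 to d4 was -0.80 in Ctrl and -0.05 in KO. From d4 to d6 it was 0.96 in Ctrl and 0.97 in KO, and of the rise of Epcam between these days 0.77 in Ctrl and 1.11 in KO remained after removal. In Ctrl the rise from d0 to d4 was 1.28 ± 0.14 on this scale and was called (adjusted p = 6.22e-07).

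**Figure D3:**
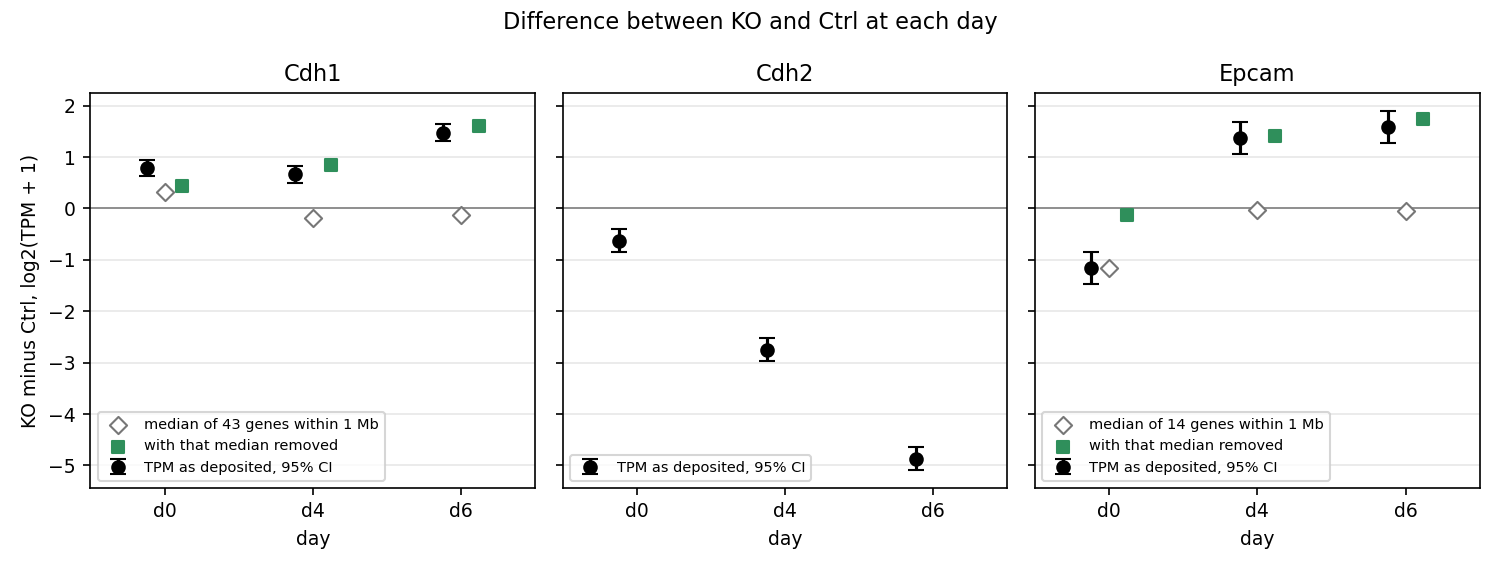
KO minus Ctrl difference of log2(TPM + 1) at d0, d4 and d6 for each gene, from TPM as deposited with its 95% interval (circles), beside the median difference of the genes starting within 1 Mb (open diamonds, 43 genes for Cdh1 and 14 for Epcam) and the value with that median removed in each library (squares). Neither is drawn for Cdh2, which has 2 such genes. At d0 the diamond of Epcam covers its own value, and at d6 Cdh1 and Epcam stand at 1.48 and 1.58 as deposited and at 1.61 and 1.75 with the median removed, while Cdh2 is at -4.87.

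In the order of mean levels, the KO groups and the Ctrl groups of Cdh1 did not mix. KO d0 at 689 ± 35.1 TPM was followed by KO d6 at 561 ± 56.7, KO d4 at 485 ± 34.1, Ctrl d0 at 398 ± 6.21, Ctrl d4 at 306 ± 6.19 and Ctrl d6 at 201 ± 19.0 (SD, n = 3 each). Among these neighbours only KO d6 and KO d4 did not differ beyond their spread in TPM as deposited (0.21, adjusted p = 0.0314). With the median of the genes within 1 Mb removed, KO d6 and KO d4 differed (0.60, adjusted p = 4.48e-06), while KO d6 and KO d0 were no longer told apart (-0.0033, adjusted p = 0.971), a call that was also lost without replicate 1 of KO d0 or of KO d6. The pairs that neighbour each other in the orders of the 3 genes and are of different day or genotype were contrasts in which 57.6% (KO d4 against Ctrl d0), 63.0% (KO d6 against Ctrl d0), 62.0% (KO d4 against Ctrl d6) and 67.7% (KO d6 against KO d0) of all genes were called. For Cdh2 the order was Ctrl d6 (85.2 ± 2.22 TPM), Ctrl d4 (24.2 ± 1.48), KO d4 (2.75 ± 0.22), Ctrl d0 (2.72 ± 0.23), KO d6 (1.96 ± 0.30) and KO d0 (1.403 ± 0.104). KO d4 was indistinguishable from Ctrl d0 at 0.01 ± 0.10 (adjusted p = 0.912), and KO d6 and KO d0 were not told apart either. For Epcam the order was KO d6 (842 ± 53.4 TPM), Ctrl d6 (281 ± 21.3), KO d4 (224 ± 27.1), Ctrl d4 (85.5 ± 6.69), Ctrl d0 (62.7 ± 8.96) and KO d0 (28.0 ± 6.66). Ctrl d6 and KO d4 did not differ by the test (0.33, adjusted p = 0.0532), nor did Ctrl d4 and Ctrl d0.

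The balance of the cadherins shows the exchange within each library. The ratio of Cdh1 to Cdh2 TPM was 162, 148 and 133 in Ctrl d0, 13.3, 12.6 and 12.1 in Ctrl d4 and 2.34, 2.18 and 2.55 in Ctrl d6. In KO it was 478, 528 and 471 on d0, 157, 183 and 191 on d4 and 257, 338 and 272 on d6. E-cadherin mRNA was thus in excess in all 18 libraries, and the lowest KO ratio on d4 and d6 lay within the range of Ctrl d0 or above it. As log2 values the group means ran from 7.20 ± 0.14 to 1.23 ± 0.11 in Ctrl and from 8.94 ± 0.09 to 8.16 ± 0.21 in KO (SD, n = 3).

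The ratio of Epcam to Cdh1 rose in both genotypes and ended near the same value. It was 0.155, 0.181 and 0.137 in Ctrl d0, and lay between 1.36 and 1.44 in the 3 libraries of Ctrl d6. In KO it was 0.0446, 0.0456 and 0.0311 on d0, and 1.61, 1.44 and 1.47 on d6. In between, the d4 ratios were 0.265 to 0.299 in Ctrl and 0.426 to 0.484 in KO. Epcam mRNA was below Cdh1 mRNA in the 12 libraries of d0 and d4 and above it in the 6 of d6. These ratios are of TPM as deposited, and the shifts of the regions around both genes enter them. At d0 the median KO minus Ctrl difference of the genes within 1 Mb was -1.16 around Epcam and 0.32 around Cdh1. From d4 to d6 in KO the median change of these genes was 0.97 around Epcam and -0.50 around Cdh1. The part of the regions in the ratio was not tested.

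**Figure D4:**
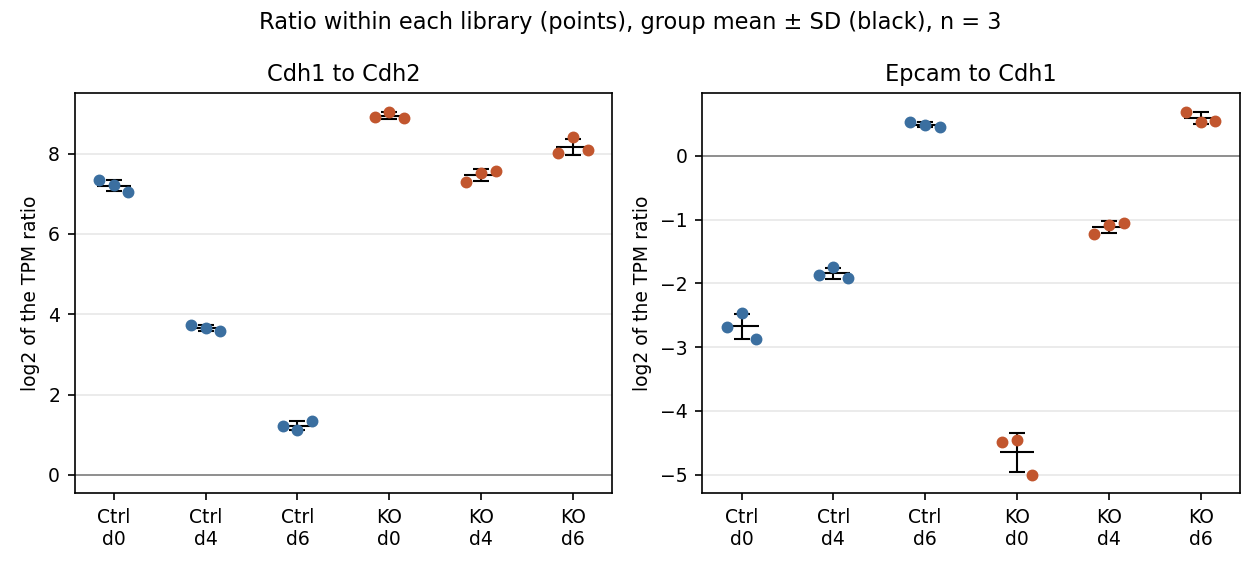
Log2 ratio of Cdh1 to Cdh2 TPM (left) and of Epcam to Cdh1 TPM (right) in each of the 18 libraries (points, Ctrl in blue and KO in orange), with the group mean ± SD in black (n = 3). The first ratio drops from 7.20 to 1.23 in Ctrl and is 7.46 or more in the group means of KO, while the second passes 0 at d6 in both genotypes. Both ratios are of TPM as deposited, without removal of the medians of neighbouring genes.

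Over the 18 libraries, log2(TPM + 1) of Cdh1 and Cdh2 had a Pearson r of -0.94, and Epcam had -0.18 with Cdh1 and 0.17 with Cdh2. These values describe 6 groups of 3 libraries that share genotype and day, and they are not independent points. The 5 genes most like Cdh1 were Atp10d (r = 0.96), Plp2, Creld1, Pycr1 and Ckmt1 (r = 0.93). The mean TPM of Atp10d, a lipid-transporting ATPase, by day was 8.55, 7.57 and 4.35 for Ctrl, and 15.4, 13.2 and 12.2 for KO.

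The 5 genes most like Cdh2 were Hoxb5, Dcx, Whsc1, Chrna3 and Scube1, all with r = 0.99. Hoxb5, a homeobox gene of the trunk region, went from 0.0971 to 94.4 TPM between d0 and d6 in Ctrl and was at 0.107 in KO d6. Dcx, a microtubule-binding protein of migrating neurons, went from 0.0280 to 5.30 TPM in Ctrl and was at 0.0153 in KO d6. The 5 most like Epcam were Bst2 (r = 0.99), Sycp3, Pphln1, Bhlhe41 and Cnn1 (r = 0.97). Bst2, a membrane protein that tethers viruses to cells, went from 147 to 732 TPM between d0 and d6 in Ctrl and was at 459 on d4 and 2123 on d6 in KO.

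Other cadherins moved in both directions. All 5 with values in the table were called at d6, 2 higher and 3 lower in KO, where 17.9% of all genes were called higher and 34.3% lower. The list holds only cadherins that passed the authors' filter of at least 5 TPM in 3 samples. By group means, Cdh6 reached this level only in Ctrl d6, Cdh4 only in Ctrl d4 and d6, and Cdh9 only in KO d6. The filter thus favoured a call at d6 for them, and the count is no separate result. Cdh3, P-cadherin, which starts 0.0925 Mb before Cdh1, was at 17.7, 115 and 75.6 TPM in KO on d0, d4 and d6 against 12.8, 54.8 and 29.5 in Ctrl, and was called higher on each day (0.44, 1.06 and 1.30). Its call at d0 was close to the threshold (adjusted p = 0.00923), in a region where the genes within 1 Mb of Cdh1 had a median of 0.32. With chromosome medians removed or after quantile normalisation, 0 of the other cadherins were called higher at d0. Cdh6, a cadherin of the kidney and neural crest, was induced with Cdh2 in Ctrl, from 0.390 to 31.0 TPM, and was at 0.685 in KO d6 (-4.27 ± 0.18, adjusted p = 1.46e-11). Cdh9 was at 9.90 TPM in KO d6 and at 0.380 in Ctrl d6 (2.97 ± 0.17, adjusted p = 3.61e-10), and Cdh24 was lower in KO (-0.75).

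Catenins, which tie cadherins to actin, were called in both directions. Of 11 symbols listed, among which Afdn and Mllt4 name the same gene, 8 had values, and at d6 1 was called higher and 3 lower in KO, near the shares over all genes (17.9% and 34.3%), with a median of -0.04 beside -0.14 over all genes. Scaled to the median ratio of all genes this median was 0.12, with 4 called higher and 3 lower, so the sign of the median depended on the scaling. Ctnnb1, beta-catenin, was at 334 TPM in KO d6 and 479 in Ctrl d6 (-0.52 ± 0.04, adjusted p = 3.91e-08). Jup, plakoglobin, which can take the place of beta-catenin at junctions, fell between d0 and d6 with changes of -1.33 in Ctrl and -0.83 in KO, and was higher in KO d6 by 0.81 ± 0.10 (adjusted p = 3.66e-06). Arvcf and Ctnnd2, both of the p120-catenin family, were lower in KO d6, with differences of -1.53 and -1.39.

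Of 17 partners and processing enzymes of Epcam, 12 had values, and at d6 the call was higher in KO for 5 and lower for 4, where 17.9% of all genes were called higher and 34.3% lower, so the number called lower was near that background. Cldn7, the claudin that Epcam binds, rose with it, from 2.07 to 45.8 TPM in Ctrl and from 2.89 to 118 in KO, and was higher in KO by 1.45 ± 0.16 at d4 and 1.34 ± 0.16 at d6 (adjusted p = 1.88e-06 and 2.39e-06). St14 encodes matriptase, a protease, and Spint2 one of its inhibitors, and they were higher in KO d6 by 1.48 ± 0.10 and 0.69 ± 0.07. The tetraspanin Cd9 was higher by 0.43 ± 0.13 (adjusted p = 0.00698). Adam10, a protease that sheds cell surface proteins, was lower in KO d6 (-1.43).

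The genes listed as repressors of Cdh1, most of which bind E-boxes, were called lower in KO or not called, and Zeb2 itself is counted among them. Of 11 listed, 9 had values, and 7 of them were called lower and 0 higher at d6, where 34.3% of all genes were called lower, with a median of -1.03 (5 lower and 0 higher after median-ratio scaling). At d4 it was 6 lower and 0 higher (32.7% of all genes lower), and at d0 1 lower and 0 higher (16.4% of all genes lower), which is no more than the background. The authors kept genes with at least 5 TPM in 3 samples. By group means, Zeb2 and Foxc2 reached this level only in Ctrl d6 and Snai2 only in Ctrl d4 and d6. The filter thus favoured a lower call in KO d6 for these genes, and the counts that hold them carry this limit. Zeb1 was at 15.5 TPM in Ctrl d6 and 2.68 in KO d6 (-2.17 ± 0.13, adjusted p = 5.82e-10), Foxc2 at 6.27 and 0.847 (-2.02 ± 0.24), and Tcf3, the most abundant, at 172 and 95.8 (-0.84 ± 0.08). Klf8 fell in both genotypes from d0 to d6, with changes of -2.46 in Ctrl and -3.22 in KO, and was lower in KO d6 (-0.49 ± 0.13, adjusted p = 0.00358).

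Of 13 regulators of the epithelial state 10 had values, and at d6 the call was higher in KO for 3 and lower for 4, not far from the 17.9% and 34.3% of all genes. Grhl2 and Ovol2 are transcription factors of the epithelial state and Esrp1 is an epithelial splicing factor. Grhl2 rose from 1.92 to 27.8 TPM in KO and from 2.40 to 7.86 in Ctrl (1.71 ± 0.15 at d6, adjusted p = 4.69e-08). Esrp1 was at 57.5 TPM in KO d6 and 18.0 in Ctrl d6 (1.63 ± 0.13, adjusted p = 1.82e-08). The members called lower were the endoderm-linked Foxa1 (-2.42 ± 0.26) and Foxa2, and Elf3 and Klf4, which were at 27.2 and 5.81 TPM in KO d6 against 57.6 and 11.03 in Ctrl d6.

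Of 22 epithelial junction genes, 21 had values, and at d6 the call was higher in KO for 11 and lower for 4, with a median of 0.53, against 17.9% and 34.3% of all genes. At d0 it was 6 higher and 5 lower (10.6% and 16.4% of all genes), and at d4 6 and 6 (12.7% and 32.7%). The even split at d4 depended on the scaling, since after median-ratio scaling it was 9 higher and 4 lower at d4 and 14 and 4 at d6. Rab25, a GTPase of epithelial recycling endosomes, was at 28.3 TPM in KO d6 and 4.17 in Ctrl d6 (2.51 ± 0.17, adjusted p = 2.49e-09). Marveld3, a tight junction protein, was higher by 2.20 ± 0.23, and Ap1m2, an adaptor subunit for basolateral sorting, by 1.80 ± 0.16. The abundant members Cldn4 and Cldn6 were at 611 and 783 TPM in KO d6 and at 416 and 440 in Ctrl d6. The 4 genes called lower were Dsp, Dsc2, F11r and Krt19. By group means, Rab25 reached the 5 TPM of the authors' filter only in KO d6 and Marveld3 only in KO d4 and d6. The filter thus favoured a higher call in KO for both.

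Of 13 mesenchymal effectors, 10 had values, and 7 were called lower and 0 higher in KO at d6, with a median of -0.91, where 34.3% of all genes were called lower and 17.9% higher. Vim, the intermediate filament vimentin, rose from 67.6 to 210 TPM in Ctrl (1.62) and fell from 112 to 28.2 in KO, and differed by -2.85 ± 0.09 at d6 (adjusted p = 3.18e-13). Col1a1 and Pdgfra were lower with differences of -1.88 ± 0.22 and -1.91 ± 0.16, as were Sparc (-1.22 ± 0.17) and Itga5 (-0.34 ± 0.09). Fn1 fell in both genotypes and its difference at d6 was not called (-0.22, adjusted p = 0.0511).

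**Figure D5:**
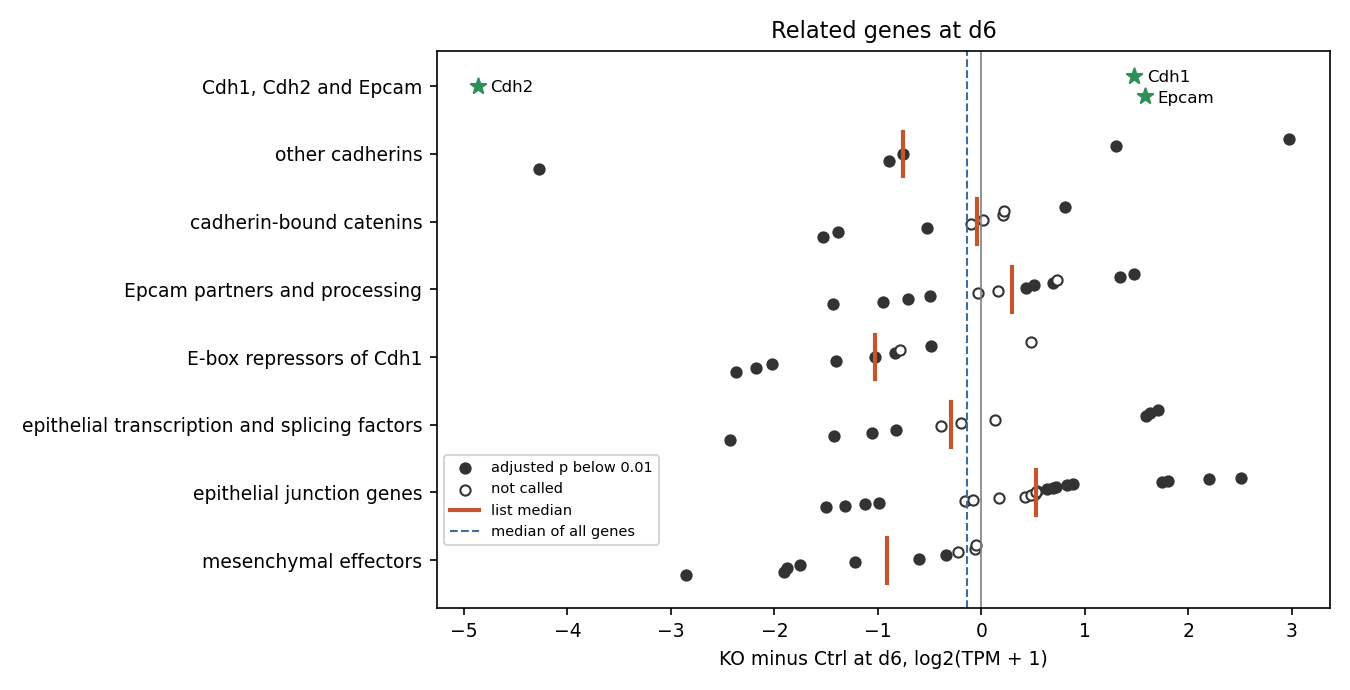
KO minus Ctrl difference of log2(TPM + 1) at d6 for the genes of 7 lists and for Cdh1, Cdh2 and Epcam (stars), with genes called at adjusted p below 0.01 filled and others open, list medians as orange bars and the median of all 10965 genes (-0.14) as a dashed line. Repressors and mesenchymal effectors lie mostly to the left, junction genes mostly to the right, and the other cadherins at both ends.

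Markers of the cell types that ESCs and EBs can hold moved as well. The summed TPM of 6 pluripotent markers fell from 4864 to 5057 in Ctrl d0 to 802 to 921 in Ctrl d6, and from 4648 to 4999 in KO d0 to 1562 to 1823 in KO d6. These 6 did not move alike. Pou5f1 was at 101 TPM in Ctrl d6 and 652 in KO d6, and Nanog at 112 and 300. Zfp42 (95.4 and 140) and Esrrb (22.9 and 36.8) were higher in KO d6 by less. Sox2 was at 538 TPM in both, and Klf4 was lower in KO d6 (11.03 and 5.81). The sum of 6 neural progenitor markers was 363 to 450 in Ctrl d6 and 99.7 to 138 in KO d6, with Pax6 at 34.6 and 0.825 TPM. Nes and Sox3 were at 93.5 and 157 TPM in Ctrl d6, the group labelled neural progenitors, and at 50.1 and 56.0 in KO d6, so they were detected in both and do not single out a group. Sox1 was at 105 TPM in Ctrl d4 and 58.4 in Ctrl d6, and at 73.1 in KO d4 and 10.9 in KO d6. At d4 the sum of the 6 neural progenitor markers was 216 to 266 TPM in Ctrl and 127 to 151 in KO. The 6 trophectoderm markers with values, of 8 listed, added up to 1065 to 1643 TPM in Ctrl d6 and 1048 to 2049 in KO d6, almost all of it from the keratins Krt8 and Krt18, which the junction list also holds. The 7 endoderm markers with values, of 9, summed to 172 to 286 TPM in Ctrl d6 and 42.1 to 67.2 in KO d6. The 3 mesoderm markers with values, of 8, summed to 148 to 200 TPM in Ctrl d6 and 6.46 to 8.70 in KO d6. Most of the Ctrl d6 sum was Meox1 (153 TPM), while most of the KO d6 sum was Foxc1 (5.50 TPM, with Meox1 at 0.721). The 3 fibroblast markers with values, of 7, summed to 3.21 to 4.45 TPM in Ctrl d0 and 26.3 to 32.7 in Ctrl d6. In KO the sum was 1.19 to 2.69 TPM on d0 and 32.7 to 44.8 on d6. Most of the KO d6 sum was Thy1 (32.8 TPM, against 5.19 in Ctrl d6). Col1a1 and Col1a2 were lower in KO d6 (3.55 and 1.60 TPM) than in Ctrl d6 (15.6 and 7.72). The part of these cell types in the levels of Cdh1, Cdh2 and Epcam was not tested.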

How the data were processed

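The authors aligned single reads of 36 bases to GRCm38 with TopHat2 2.0.13, counted them per gene with featureCounts 1.4.6 and tested differences with DESeq2. The deposited table holds TPM for 11046 entries, from which the authors had removed genes without at least 5 TPM in 3 samples and the 20% least variable genes. After dropping 81 repeated entries 10965 genes remained, so genes low in all groups are not seen. A gene low in most groups entered only through the groups where it was high, as Cdh2 did through Ctrl d4 and d6. The authors also deposited 3 score columns of variability per gene, which were not used. In all 10965 genes the TPM corresponded to whole reads plus 1, within 1e-06, and these reads gave the depth (median 12131165 per library). The authors' filter on variable genes raises every share of genes called.

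Differences were computed on log2(TPM + 1) with limma 3.58.1 in R 4.3.3, with 1 mean per genotype and day over 18 libraries, a trended empirical Bayes variance, two-sided tests and Benjamini-Hochberg adjustment over all genes for each of 18 contrasts. The main test used TPM as deposited, and voom was run on the recovered reads as the alternative. The script was tested on simulated data. Cdh1, Cdh2, Epcam, the gene lists, the markers and the tests were chosen with earlier results of these data known. The difference in change from d4 to d6, the removal of the median of genes within 1 Mb, and the windows of 20 Mb and 30 Mb on chromosome 17 were added after the data were seen. Named genes were the 3 themselves, Zeb2, the 5 genes with the highest Pearson correlation with each, the genes next to each, and from each list the 3 of highest mean TPM and the 3 of largest change among those called at d6. Nqo1, Rltpr, Gm10036, Gm7665, Ovol2, Foxa2, Dsp, Dsc2, F11r, Krt19 and Fn1 were named after their values were seen. Some genes that this rule names are not reported here. Gene positions are those of GENCODE M21 for GRCm38. The alternatives were other pseudocounts, a filter on mean TPM, 3 other scalings, voom, no variance trend, a replicate block, fits to 1 day, leaving out each library, and removal of chromosome or neighbour medians. The 2i inhibitors PD0325901 and CHIR99021 were used at 0.4 µM and 1 µM per the labels, and the study's methods give other concentrations.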

Additional observations from a re-analysis of the deposited data

Results flagged for a closer look

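For 7 changes between days a test of the difference itself found that KO and Ctrl did not change alike (limma, adjusted p below 0.01 over all genes). For Cdh1 the KO change exceeded that of Ctrl by 0.69 from d0 to d6 and by 0.81 from d4 to d6. For Cdh2 the KO change fell short of that of Ctrl, with differences of -2.12 from d0 to d4, -2.12 from d4 to d6 and -4.24 from d0 to d6. For Epcam the KO change exceeded that of Ctrl by 2.53 from d0 to d4 and by 2.73 from d0 to d6. All are on the log2(TPM + 1) scale. With the median of genes within 1 Mb removed, the values from d0 to d6 were 1.18 for Cdh1 and 1.88 for Epcam. The groups hold 3 libraries each, and outlying libraries were not tested for.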

How the results depend on the processing

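Of 36 differences for Cdh1, Cdh2 and Epcam, 26 kept their direction and their side of the threshold under all settings run for them, and over 29 settings 971 of 1005 alternative values did. The numbers of genes called KO against Ctrl stayed within 1.5 times throughout. The other values follow, and where no value in the report shows a cause, the cause was not tested.

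With chromosome medians removed, the Cdh1 change from d4 to d6 was -0.16 in Ctrl (no longer called) and 0.64 in KO (now called), its change from d0 to d6 in KO was -0.0058 (no longer called), its difference in change from d0 to d4 turned to 0.41, and the Epcam change from d0 to d4 in Ctrl was 0.49 (now called). With the median of genes within 1 Mb removed, the corresponding values were -0.16, 0.60, -0.0033, 0.42 and 1.28, and Epcam at d0 was -0.13 KO minus Ctrl (no longer called).

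Scaling moved the low values of Cdh2. Quantile normalisation gave -0.41 KO minus Ctrl at d0 (adjusted p = 0.0124, no longer called), and in KO -0.067 by d4 and -0.56 by d6, both counted from d0 and both turned, and -0.50 from d4 to d6 (now called). Median-ratio scaling gave -0.35 for the last of these (now called) and turned the Cdh1 difference in change from d0 to d4 to 0.00021. A pseudocount of 0.1 gave -0.47 from d4 to d6 and 0.45 from d0 to d6 for Cdh2 in KO, and no variance trend gave -0.34 and 0.30, all now called. Voom gave 0.25 for Cdh1 from d4 to d6 in KO, and a pseudocount of 5 and a mean TPM of at least 10 gave 0.42 and 0.45 for Epcam from d0 to d4 in Ctrl, all now called. The share of calls that were higher in KO was 39.1%, 28.0% and 34.3% at d0, d4 and d6, and 46.8%, 49.6% and 49.9% after median-ratio scaling, which brought the median of all genes from -0.07, -0.16 and -0.14 to -0.03, 0.00 and 0.01.

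Leaving out 1 library at a time moved the Cdh1 change in KO between 0.14 and 0.28 from d4 to d6 (called without KO d6 replicate 1) and between -0.37 and -0.23 from d0 to d6 (not called without replicate 1 of KO d0 or of KO d6). For Cdh2 in KO it moved between -0.42 and -0.27 from d4 to d6 (called without KO d6 replicate 3) and between 0.23 and 0.37 from d0 to d6 (called without KO d6 replicate 2). For Epcam in Ctrl from d0 to d4 it moved between 0.34 and 0.55, and was called without Ctrl d0 replicate 2, KO d0 replicate 1, 2 or 3, or KO d4 replicate 1.

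Same-numbered Ctrl and KO libraries had correlations of their deviations between -0.08 and 0.23, and 7 of 9 Ctrl libraries correlated best with their own number, as a hint from the data. A replicate block changed no call of the 3 genes (Epcam KO minus Ctrl at d0 kept -1.15 with adjusted p = 2.84e-05) and left 2780, 4853 and 5629 genes called at d0, d4 and d6, against 2960, 4988 and 5731 without it.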
